A study of Mus musculus with 18 samples.

Results

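The genes described here build and seal epithelial sheets: the surface adhesion molecule Epcam, the simple-epithelium keratins Krt8, Krt18 and Krt19, the adherens junction cadherin Cdh1, the tight junction claudins Cldn1, Cldn2, Cldn3 and Cldn7, and the gap junction connexin Gjb1. The list named 10 genes, and every probe that the platform annotation gives to one of them was taken, which came to 13 probes of 45281 on the array. All 10 genes were on the array, among 19057 genes with at least 1 probe of their own. Krt8, Cdh1 and Cldn2 had 2 probes each and the other genes had 1.

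RNA was hybridised to 18 Illumina mouse expression arrays, in 6 groups of 3: FAK7 with U73122, FAK7 untreated, FAK1 with U73122, FAK1 untreated, FAK5 with U73122 and FAK5 untreated. U73122 is a phospholipase C inhibitor, given at 1 μM for 24 h, and the untreated cells were kept without it. By the labels, FAK1, FAK5 and FAK7 each stand for 1 mouse, numbered 1, 5 and 7, of strain C57Bl/6 and 17 weeks of age, and the labels give colon tumours as the source. All groups carried Fapbl-Cre and the Apc2lox14/+ allele and were kept with Dox (doxycycline), and the cells were taken from dissociated tumours with magnetic beads against a surface marker. The labels do not say in which cells the Cre driver is active, and nothing in them says that the 3 arrays of a group came from separate cultures, so p-values here measure the spread between arrays, which may be technical. Each label stands for its own source, so a difference between labels cannot be told apart from a difference between those sources.

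Simple epithelia carry keratin filaments made of paired chains, a type II chain such as keratin 8 with a type I chain such as keratin 18 or 19. Neighbouring cells are held together by adherens junctions, in which E-cadherin (Cdh1) binds catenins, and by desmosomes, to which the keratin filaments attach. Claudins set which ions and solutes pass through tight junctions, and connexins form channels between the cytoplasms of touching cells. Colon epithelium is rich in Epcam, Krt8, Krt18, Krt19, Cdh1, Cldn3 and Cldn7, while hepatocytes of the adult liver carry Krt8, Krt18, Cdh1 and Gjb1 and lack Krt19 and, for the most part, Epcam, which mark the bile ducts.

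Between 38.2% and 44.2% of the probes of an array were detected, meaning a detection p under 0.05 in the deposited table, and signals are given as normalized log2 values on which the lowest detected probe of an array lay between 4.68 and 4.99. Pairs of arrays of the same label correlated at 0.962 to 0.993 over the probes kept, and pairs of different labels at 0.576 to 0.876. Xist, transcribed from the inactive X chromosome, was high on 8 arrays, the U73122 arrays and the second untreated array of FAK1 and of FAK5, and Eif2s3y, a Y-linked gene, was high on the other 10, so the arrays of FAK1 and of FAK5 do not all go with 1 mouse each and this state differs with treatment in both. The first FAK7 array with U73122 read highest of the 6 FAK7 arrays for 7 of 7 macrophage genes and lowest for 6 of 11 hepatocyte genes. The Krt8 and Krt18 treatment differences are also given without it, and the other FAK7 treatment differences include it. The colon label was checked with 15 colon epithelium genes on the array. Of these, 2 were detected on all 6 FAK7 arrays (Lgals4 and Lgr5), 4 on all 6 FAK1 arrays (Muc2, Lgals4, Car1 and Car4) and 3 on all 6 FAK5 arrays (Muc2, Lgals4 and Car4). The intestinal regulators Cdx1 and Cdx2 and the brush border protein Vil1 were detected on 1, 2 and 2 of 18 arrays. Of 12 hepatocyte genes, among them Apoa1, Ttr and Hpx, 11 were detected on all 6 FAK7 arrays, 3 on all 6 FAK1 arrays (Trf, Tat and Ass1) and 2 on all 6 FAK5 arrays (Trf and Tat). Their summed signal ran from 152353 to 159949 in FAK7 with U73122, 163942 to 169652 in FAK7 untreated, 801.7 to 1154 in FAK1 with U73122, 551.7 to 697 in FAK1 untreated, 437.2 to 534.7 in FAK5 with U73122 and 501.6 to 514.8 in FAK5 untreated. In such bulk samples, fewer cells of a type and less RNA per cell cannot be told apart.

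The first question was where these genes were present. Of the 10 genes, 8 had a probe detected on all 6 FAK7 arrays, namely Krt8, Krt18, Cdh1, Cldn1, Cldn2, Cldn3, Cldn7 and Gjb1, against 1 on all 6 FAK1 arrays and 1 on all 6 FAK5 arrays, in both cases Cldn1. Krt18, Cldn2 and Gjb1 were detected on no array of FAK1 or FAK5, while Krt8, Cdh1, Cldn3 and Cldn7 were detected on some. Over all 19057 genes, 45.1% were detected on all 6 FAK7 arrays, 45.3% on all 6 FAK1 arrays and 44% on all 6 FAK5 arrays, and 5.34% were detected on all 6 of FAK7 but on all 6 of neither other label. Epcam was detected on 0 of 18 arrays and Krt19 on 1.

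**Figure D1:**
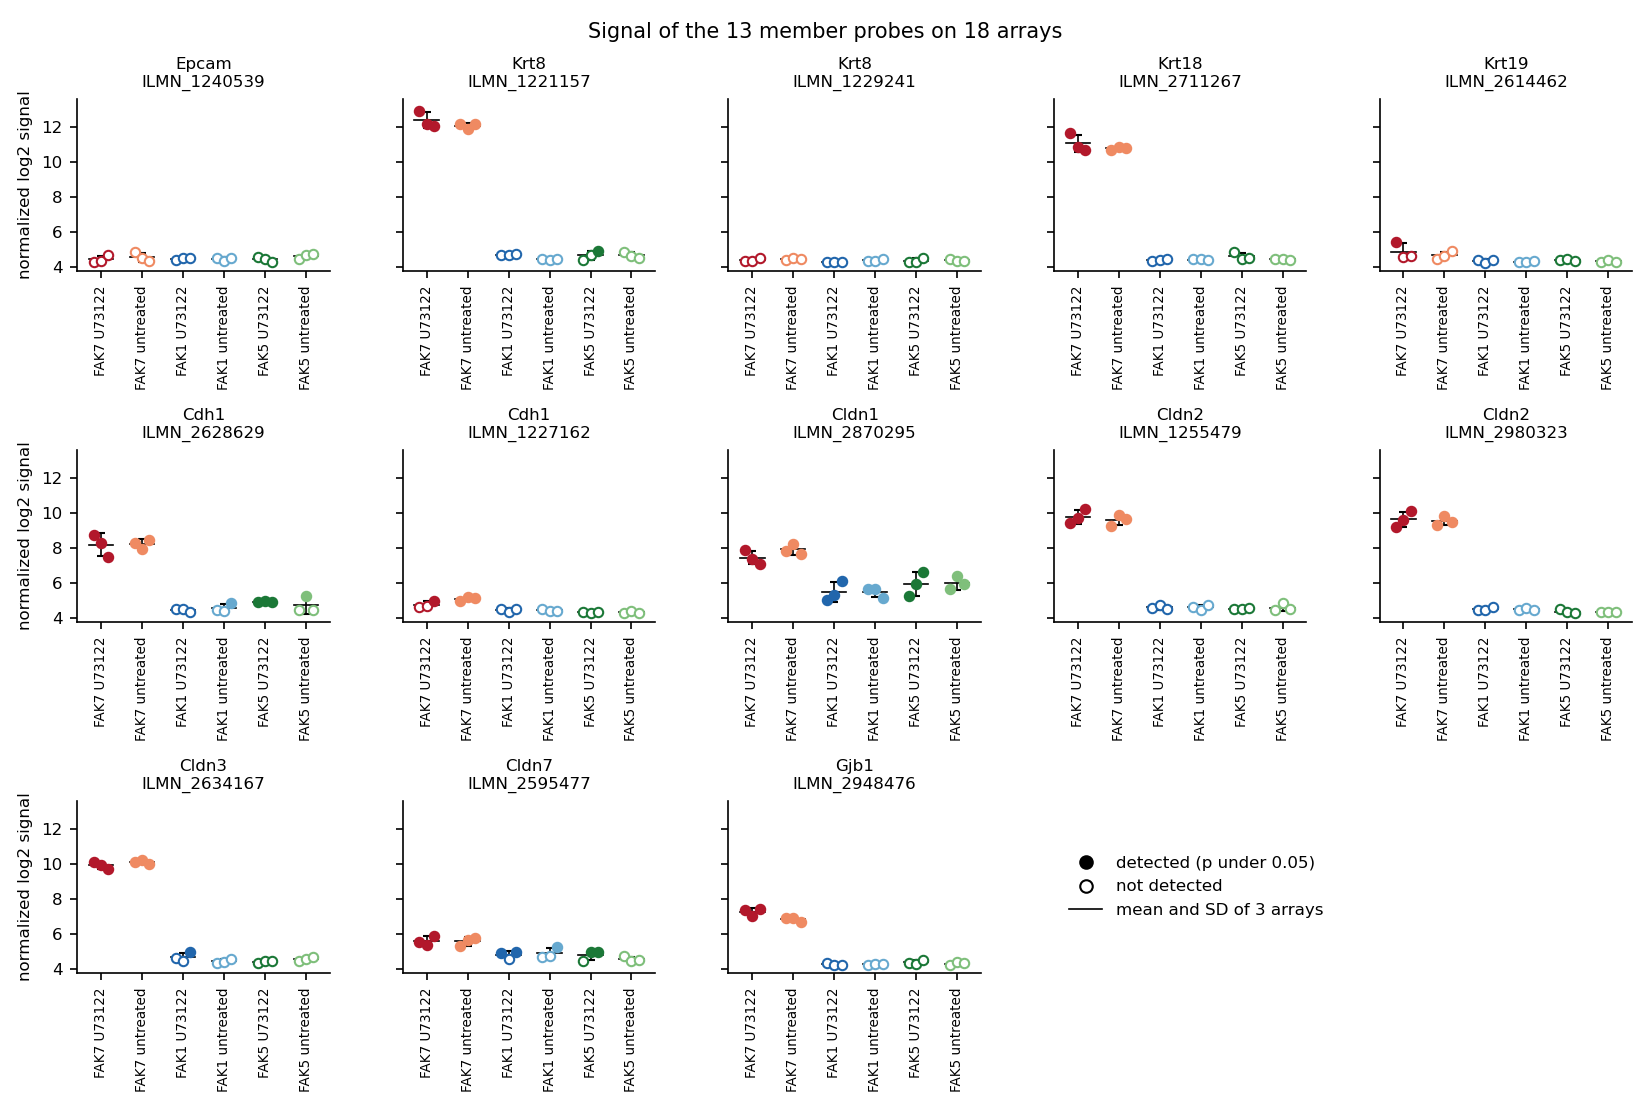
Normalized log2 signal (y axis) of each of the 13 probes, 1 panel per probe, in the 6 groups (x axis, U73122 left of untreated within each mouse label). Points are arrays, filled where the probe was detected and open where it was not, and the lines are the mean and SD of 3 arrays. The FAK7 arrays stand above all others for Krt8 (ILMN_1221157), Krt18, Cdh1 (ILMN_2628629), Cldn1, both Cldn2 probes, Cldn3 and Gjb1, while Epcam stays at 4.30 to 4.86 on every array. FAK7 arrays also stand narrowly above all others for Cldn7 (lowest 5.33, highest other 5.29) and Cdh1 ILMN_1227162 (4.63 and 4.57).

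Krt8 and Krt18, the chains that pair in simple epithelia, had larger differences between FAK7 and the other labels than the other 8 tested probes of these genes. Their genes lie near each other on chromosome 15 of build GRCm38.p6, Krt8 at 101996711 to 102004342 and Krt18 at 102028216 to 102032026. The RefSeq promoter windows of both are shown because the pair moved together across labels, with those of Cldn3 (chromosome 5, 134986214 to 134987476), a tight junction gene with the same pattern, and of Epcam (chromosome 17, 87635979 to 87651127), an epithelial gene that was not detected. Each window runs from 250 bases before to 50 bases after the gene start, 5′ to 3′ on the strand of the gene. Krt8 is at chr15:102004293-102004592 on the minus strand, and the others are on the plus strand, Krt18 at chr15:102027966-102028265, Cldn3 at chr5:134985964-134986263 and Epcam at chr17:87635729-87636028. Capitals mark the E-box CAGGTG, or its reverse complement CACCTG, the kind of sequence that repressors of epithelial genes such as Snai1 and Zeb1 are known to bind.
Krt8: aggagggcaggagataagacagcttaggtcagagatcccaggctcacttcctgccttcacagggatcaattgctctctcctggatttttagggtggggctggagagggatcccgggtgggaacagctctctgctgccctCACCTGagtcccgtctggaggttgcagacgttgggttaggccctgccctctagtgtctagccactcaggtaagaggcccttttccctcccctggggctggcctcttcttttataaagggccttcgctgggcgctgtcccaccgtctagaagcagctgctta
Krt18: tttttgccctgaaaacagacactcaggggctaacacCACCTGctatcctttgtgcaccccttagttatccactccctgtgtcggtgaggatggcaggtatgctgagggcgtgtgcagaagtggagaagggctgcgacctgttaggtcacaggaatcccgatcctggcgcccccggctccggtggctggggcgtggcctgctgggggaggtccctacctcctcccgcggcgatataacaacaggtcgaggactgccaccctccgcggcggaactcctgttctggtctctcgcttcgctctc
Cldn3: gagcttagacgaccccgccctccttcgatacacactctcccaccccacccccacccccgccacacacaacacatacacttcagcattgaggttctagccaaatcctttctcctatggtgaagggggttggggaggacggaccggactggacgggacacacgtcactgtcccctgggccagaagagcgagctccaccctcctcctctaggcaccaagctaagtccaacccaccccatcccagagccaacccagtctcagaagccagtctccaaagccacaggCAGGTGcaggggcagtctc
Epcam: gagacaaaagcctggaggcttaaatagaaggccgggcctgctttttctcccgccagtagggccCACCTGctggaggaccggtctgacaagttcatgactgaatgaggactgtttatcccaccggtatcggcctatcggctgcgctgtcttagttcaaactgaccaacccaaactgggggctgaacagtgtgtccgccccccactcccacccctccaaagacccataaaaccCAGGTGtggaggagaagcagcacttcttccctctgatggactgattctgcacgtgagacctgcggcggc
The RefSeq table held windows for 8 of the 10 genes, 12 windows in all, with none for Cdh1 and Krt19. CAGGTG on either strand was in 6 of these windows, belonging to Krt8, Krt18, Cldn3, Cldn7, Epcam and Gjb1, against 20.2% of the 32851 windows of the table. The undetected Epcam had 2 matches and the detected Krt8, Krt18 and Cldn3 had 1 each, so a match was found with and without signal. The windows of Cldn1 and Cldn2, both detected on all 6 FAK7 arrays, held no match, so signal was also found without one. A match describes letters and is not a measured binding site.

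The Krt8 probe ILMN_1221157 read 12.90, 12.16 and 12.07 on the FAK7 arrays with U73122 and 12.17, 11.87 and 12.18 on the untreated FAK7 arrays. In FAK1 it read 4.69, 4.69 and 4.76 with U73122 and 4.49, 4.44 and 4.51 untreated, and in FAK5 4.44, 4.68 and 4.93 with U73122 and 4.87, 4.67 and 4.51 untreated. It was detected on every FAK7 array, on no FAK1 array and on 1 FAK5 array, the third with U73122. FAK7 did not overlap FAK1 or FAK5, which overlapped each other. The mean was 12.23 ± 0.35 in FAK7, 4.60 ± 0.13 in FAK1 and 4.68 ± 0.19 in FAK5 (SD, n = 6 each), with an adjusted p of 3.14e-19 for FAK7 over FAK1 and 3.69e-19 for FAK7 over FAK5 in limma's moderated test. FAK7 was at least 168.9-fold above FAK1 and at least 169.4-fold above FAK5, where each array counts at no less than its lowest detected signal, as in all "at least" folds here. The other Krt8 probe, ILMN_1229241, is annotated to the same transcript and disagreed with the first: it was detected on 0 of 18 arrays and had means of 4.46 in FAK7, 4.37 in FAK1 and 4.40 in FAK5.

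Krt18 read 11.64, 10.84 and 10.70 on the FAK7 arrays with U73122 and 10.69, 10.84 and 10.82 on the untreated FAK7 arrays. No FAK1 or FAK5 array detected it, with 4.39 as the lowest and 4.89 as the highest value there. FAK7 was at least 68.4-fold above FAK1 and at least 69.2-fold above FAK5, with adjusted p-values of 3.93e-18 and 4.63e-18 in the limma fit. Krt19 (chromosome 11, 100140810 to 100145926), the type I partner of ductal and intestinal cells, read 5.45, 4.58 and 4.63 in FAK7 with U73122 and 4.51, 4.65 and 4.91 in FAK7 untreated, and was detected on the first of these arrays alone. Its means were 4.79 ± 0.35 in FAK7, 4.35 ± 0.07 in FAK1 and 4.39 ± 0.07 in FAK5 (SD, n = 6 each), and it was not tested because no group detected it on all 3 arrays.

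Cdh1 (chromosome 8, 106603350 to 106670247) encodes E-cadherin. Its probe ILMN_2628629 read 8.77, 8.32 and 7.47 in FAK7 with U73122 and 8.29, 7.98 and 8.48 in FAK7 untreated. In FAK1 it was detected on the third untreated array, at 4.87, and on none of the other 5. In FAK5 it read 4.94, 4.98 and 4.95 with U73122 and 4.46, 5.31 and 4.46 untreated. The 4 FAK5 arrays that detected Cdh1 were the 4 FAK5 arrays with high Xist. FAK1 went the other way: the untreated FAK1 array that detected Cdh1 had low Xist, at 4.98, and high Eif2s3y, at 10.08. No FAK1 array with high Xist detected Cdh1. The part of the Xist state in these results was not tested. FAK7 was at least 10.5-fold above FAK1 and at least 9.65-fold above FAK5, with adjusted p-values of 3.74e-12 and 1.01e-11 in the limma fit. The probe ILMN_1227162, annotated to another Cdh1 transcript, was detected on 4 arrays, all FAK7, and averaged 4.96 ± 0.23 in FAK7, 4.48 ± 0.09 in FAK1 and 4.35 ± 0.04 in FAK5 (SD, n = 6 each). Both probes were higher in FAK7, the second close to the detection limit.

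Of the claudins, Cldn2 (chromosome X, 139800808 to 139811386) forms cation pores, and Cldn1, Cldn3 and Cldn7 are sealing claudins. The 2 Cldn2 probes gave the same picture. ILMN_1255479 read 9.43, 9.75 and 10.21 in FAK7 with U73122 and 9.28, 9.87 and 9.67 untreated. ILMN_2980323 read 9.23, 9.61 and 10.11 in FAK7 with U73122 and 9.33, 9.83 and 9.49 untreated. Neither was detected on any FAK1 or FAK5 array, and FAK7 was at least 29.3-fold above FAK1 and at least 29.1-fold above FAK5 by the first probe, and at least 27.4-fold and 27.7-fold by the second.

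Cldn3 read 10.13, 9.95 and 9.73 in FAK7 with U73122 and 10.10, 10.21 and 10.01 in FAK7 untreated. It was detected on 1 FAK1 array, the third with U73122 at 4.97, and on no FAK5 array. FAK7 was at least 36.1-fold above FAK1 and at least 37.1-fold above FAK5. Cldn7 (chromosome 11, 69964779 to 69967886) was much closer between labels, at 5.59, 5.37 and 5.92 in FAK7 with U73122 and 5.33, 5.68 and 5.81 in FAK7 untreated. Its label means were 5.62 ± 0.24 in FAK7, 4.88 ± 0.25 in FAK1 and 4.71 ± 0.24 in FAK5 (SD, n = 6 each), and 6 FAK7, 3 FAK1 and 2 FAK5 arrays detected it. FAK7 was at least 1.59-fold above FAK1 and at least 1.70-fold above FAK5, with adjusted p-values of 0.000131 and 1.11e-05 in the limma fit.

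Cldn1 (chromosome 16, 26356645 to 26371839) was the exception, detected on all 18 arrays. It read 7.87, 7.41 and 7.12 in FAK7 with U73122 and 7.86, 8.27 and 7.68 in FAK7 untreated. FAK1 gave 5.03, 5.35 and 6.16 with U73122 and 5.68, 5.65 and 5.15 untreated, and FAK5 gave 5.27, 5.97 and 6.63 with U73122 and 5.67, 6.41 and 5.98 untreated. FAK7 lay above every array of the other labels, 4.58-fold over FAK1 and 3.28-fold over FAK5, with adjusted p-values of 9.92e-08 and 2.11e-06 in the limma fit. FAK1 and FAK5 overlapped, with a log2 difference of -0.48 ± 0.23 (SE) and an adjusted p of 0.0855, which passed the threshold without the third FAK1 array with U73122 (-0.64, adjusted p = 0.0217) and without the first FAK5 array with U73122 (-0.65, adjusted p = 0.0179).

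Gjb1 (chromosome X, 101376376 to 101385629) encodes connexin 32, the main gap junction protein of hepatocytes. It read 7.36, 7.03 and 7.43 in FAK7 with U73122 and 6.96, 6.96 and 6.73 in FAK7 untreated, and no FAK1 or FAK5 array detected it. FAK7 was at least 4.76-fold above FAK1 and at least 4.81-fold above FAK5. Epcam read 4.30, 4.38 and 4.69 in FAK7 with U73122 and 4.86, 4.53 and 4.35 in FAK7 untreated, with means of 4.52 ± 0.22 in FAK7, 4.48 ± 0.07 in FAK1 and 4.56 ± 0.17 in FAK5 (SD, n = 6 each). None of these values was above background, so Epcam, a surface marker of colon epithelium and its tumours, was not detectable with this 1 probe in any group.

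In the fit over 21193 probes, those detected on all 3 arrays of at least 1 group, 10 of the 13 probes could be tested, and 10 of 10 were called higher in FAK7 than in FAK1 and in FAK5 at an adjusted p under 0.05. Of all probes tested, 74.6% were called between FAK7 and FAK1 in either direction and 33% were called higher in FAK7. Against FAK5 these shares were 79.1% and 38.1%. All of the tested probes but those of Cldn1 and Cdh1 (ILMN_2628629) passed the filter on low signals through FAK7 alone, so their count is fixed in part by that filter. Krt18, both Cldn2 probes, Gjb1 and Cdh1 ILMN_1227162 were detected on no FAK1 or FAK5 array. For these, a comparison of FAK1 with FAK5 sets background levels side by side, so few calls follow from the low signal. Between FAK1 and FAK5, 0 of 10 were called, against 58.5% of all probes, and 0 had an unadjusted p under 0.05, against 62% of all probes, with log2 differences from -0.48 to 0.17. This count was 1 without the third FAK1 array with U73122, and also 1 without the first FAK5 array with U73122 (Cldn1 in both cases), and 1 without the 4 untreated arrays with Y-linked transcripts, where Cdh1 (ILMN_2628629) had a log2 difference of -0.68 and an adjusted p of 0.0365.

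The genes most like Krt8 were looked for over all 18 arrays, as the 5 genes outside the list with the highest Pearson correlation of log2 signal. They were Apoc2, an activator of lipoprotein lipase (r = 0.999), Fga, the fibrinogen alpha chain (0.999), Tm4sf4, a membrane protein of the tetraspanin-like L6 family (0.998), Cyp3a13, a cytochrome P450 (0.998), and Mettl7b (0.998). All 5 were high in FAK7 and near background in the other labels, such as Fga with means of 14.19 in FAK7, 4.36 in FAK1 and 4.44 in FAK5. These correlations describe 18 arrays that fall into 3 labels, and they follow the difference between labels.

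Epithelial genes outside the list were high in FAK7 in part only. Of 15 other keratins on the array, 2 were detected on all 6 FAK7 arrays, against 1 on all 6 FAK1 arrays and 1 on all 6 FAK5 arrays. Krt23, a type I keratin, averaged 7.87 ± 0.39 in FAK7, 4.57 ± 0.10 in FAK1 and 4.74 ± 0.26 in FAK5 (SD, n = 6 each), adjusted p = 2.36e-12 over FAK1 in the limma fit. It passed the filter on low signals through FAK7 alone. Krt10, a keratin of stratified epithelium, was detected on every array, at 7.47 in FAK7, 7.66 in FAK1 and 8.11 in FAK5, and was lower in FAK7 than in FAK5 by a log2 difference of -0.64 (adjusted p = 0.000188, limma), while the difference from FAK1 did not pass. Krt7, a ductal keratin, was detected on 5 FAK7 arrays, 1 FAK1 array and 0 FAK5 arrays, with means of 5.27 in FAK7, 4.46 in FAK1 and 4.39 in FAK5. The keratins of stratified and basal epithelium Krt5, Krt6a and Krt13 were detected on 0 of 18 arrays. Others of the list, Krt4, Krt6b, Krt14, Krt15, Krt16 and Krt17, were detected on some arrays but on all 6 of no label.

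The desmosome is where these keratins attach. Of 5 desmosome genes tested, 4 were higher in FAK7 than in FAK1 and 5 higher than in FAK5, with median log2 differences of 2.39 and 2.28, against medians of -0.08 and -0.02 over all 11377 genes tested. Dsg2 and Pkp3 passed the filter on low signals through FAK7 alone, so these counts and medians are fixed in part by it. Dsg2, the desmosomal cadherin of simple epithelia, averaged 10.57 ± 0.05 in FAK7, 4.33 ± 0.03 in FAK1 and 4.44 ± 0.09 in FAK5 (SD, n = 6 each), and was undetected on all FAK1 and FAK5 arrays. Pkp2, an armadillo protein of the desmosomal plaque also found in heart, averaged 8.77 in FAK7, 6.38 in FAK1 and 4.82 in FAK5. Pkp4, which also occurs at adherens junctions, averaged 10.67 in FAK7, 10.26 in FAK1 and 8.85 in FAK5, higher in FAK7 than in FAK5 (adjusted p = 5.48e-08, limma) but not past the threshold against FAK1 (adjusted p = 0.0548).

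Over all 11377 genes tested, 4026 were higher and 4592 lower in FAK7 than in FAK1, and 4547 higher and 4613 lower than in FAK5, and the counts of the lists below stand beside these. Of 8 other claudins tested, 2 were higher and 5 lower in FAK7 than in FAK1, with a median log2 difference of -0.26, and 2 were higher and 5 lower than in FAK5, with a median of -0.55. Cldn5, the claudin of endothelium, averaged 6.81 ± 0.22 in FAK7, 9.57 ± 0.49 in FAK1 and 7.20 ± 0.32 in FAK5 (SD, n = 6 each). Cldn15, a cation channel claudin, averaged 5.80 in FAK7, 8.90 in FAK1 and 6.76 in FAK5. Cldn12, which is widely expressed, was 9.27 in FAK7, 8.14 in FAK1 and 8.29 in FAK5. So claudins differed among themselves, and a higher level in FAK7 was not shared by the family.

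Other tight junction proteins were mixed, with 7 of 14 tested higher and 4 lower in FAK7 than in FAK1, and 8 higher and 4 lower than in FAK5. Ocln, Tjp3, Marveld3, Patj and Crb3 passed the filter on low signals through FAK7 alone, so the higher counts are fixed in part by it. F11r, the junctional adhesion molecule of epithelium and platelets, averaged 8.42 in FAK7, 7.67 in FAK1 and 6.19 in FAK5. Jam2, its relative in vessels, averaged 5.34 in FAK7, 7.91 in FAK1 and 7.79 in FAK5. Cgnl1, a cytoplasmic plaque protein, averaged 9.50 in FAK7, 10.59 in FAK1 and 7.56 in FAK5, so FAK1 was highest for it. The core adherens junction proteins that are not confined to epithelium were present in every label: of 14 on the array, 9 were detected on all 6 FAK7 arrays, against 10 on all 6 FAK1 arrays and 9 on all 6 FAK5 arrays. Ctnnb1, beta-catenin, averaged 10.24 in FAK7, 11.56 in FAK1 and 11.63 in FAK5, and Ctnna1, alpha-catenin, 11.26 in FAK7, 11.34 in FAK1 and 10.45 in FAK5. Vcl, vinculin, averaged 9.01 in FAK7, 10.39 in FAK1 and 10.79 in FAK5.

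Among 5 other connexins tested, 2 were higher and 3 lower in FAK7 than in each other label. Gjb2, connexin 26, which shares hepatocyte gap junctions with connexin 32, averaged 11.46 ± 0.07 in FAK7, 4.73 ± 0.16 in FAK1 and 6.09 ± 0.38 in FAK5 (SD, n = 6 each). Gja1, connexin 43 of fibroblasts, muscle and fat, ran the other way, at 8.71 in FAK7, 12.45 in FAK1 and 10.48 in FAK5, an adjusted p of 1.48e-15 for FAK7 against FAK1 in the limma fit. Gja4, connexin 37 of vessels, averaged 8.20 in FAK7, 6.69 in FAK1 and 6.60 in FAK5.

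Regulators of epithelial identity were higher in FAK7 than in FAK1 for 8 of 9 tested genes, where 4026 of all 11377 genes were. Against FAK5, 7 of 9 were higher and 1 was lower, where 4547 of all genes were higher. The median log2 differences were 1.69 and 1.51. Hnf4a, Foxa2 and Foxa3 passed the filter on low signals through FAK7 alone, so these counts and medians are fixed in part by it. Hnf4a, a nuclear receptor of liver and gut epithelium, averaged 11.27 ± 0.23 in FAK7, 4.92 ± 0.33 in FAK1 and 4.82 ± 0.19 in FAK5 (SD, n = 6 each). Foxa3, a forkhead factor of liver and gut, averaged 10.81 in FAK7 and was undetected on all arrays of FAK1 and FAK5. Esrp2, an epithelial splicing regulator, averaged 8.97 in FAK7, 5.36 in FAK1 and 4.30 in FAK5, while its relative Esrp1 was detected on 0 of 18 arrays. The general epithelial factors Ehf and Grhl2 were detected on 0 and 2 of 18 arrays. Grhl1, Elf3 and Ovol2 of the same list were detected on all 6 FAK7 arrays, and also on arrays of FAK1 and of FAK5.

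Of 9 tested genes for other epithelial surface and sorting proteins, 4 were higher and 2 lower in FAK7 than in FAK1, and 5 higher and 3 lower than in FAK5. Lsr, Spint2 and Prss8 passed the filter on low signals through FAK7 alone, so the higher counts are fixed in part by it. Lsr, a receptor of tricellular junctions, averaged 7.94 in FAK7 and was undetected in FAK1 and FAK5. Lgals4, a galectin of gut epithelium, was detected everywhere, at 8.76 in FAK7, 9.08 in FAK1 and 7.05 in FAK5. Tspan8, a tetraspanin, averaged 5.15 in FAK7 and 5.01 in FAK1, against 8.83 in FAK5. Of 7 tested genes linked with a mesenchymal state, 2 were higher and 4 lower in FAK7 than in each of the other labels. Snai1 passed the filter on low signals through FAK7 alone, so the higher count is fixed in part by it. Zeb1, a repressor of Cdh1, averaged 7.34 in FAK7, 9.32 in FAK1 and 9.54 in FAK5, while Snai1, another such repressor, averaged 5.43 in FAK7, detected on 5 of 6 arrays, and 4.47 in FAK1 and 4.35 in FAK5, detected on none. Vim, vimentin, averaged 7.96 in FAK7, 10.52 in FAK1 and 9.38 in FAK5. Fn1, fibronectin, which hepatocytes also secrete, averaged 10.41 in FAK7, 7.52 in FAK1 and 8.43 in FAK5.

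**Figure D2:**
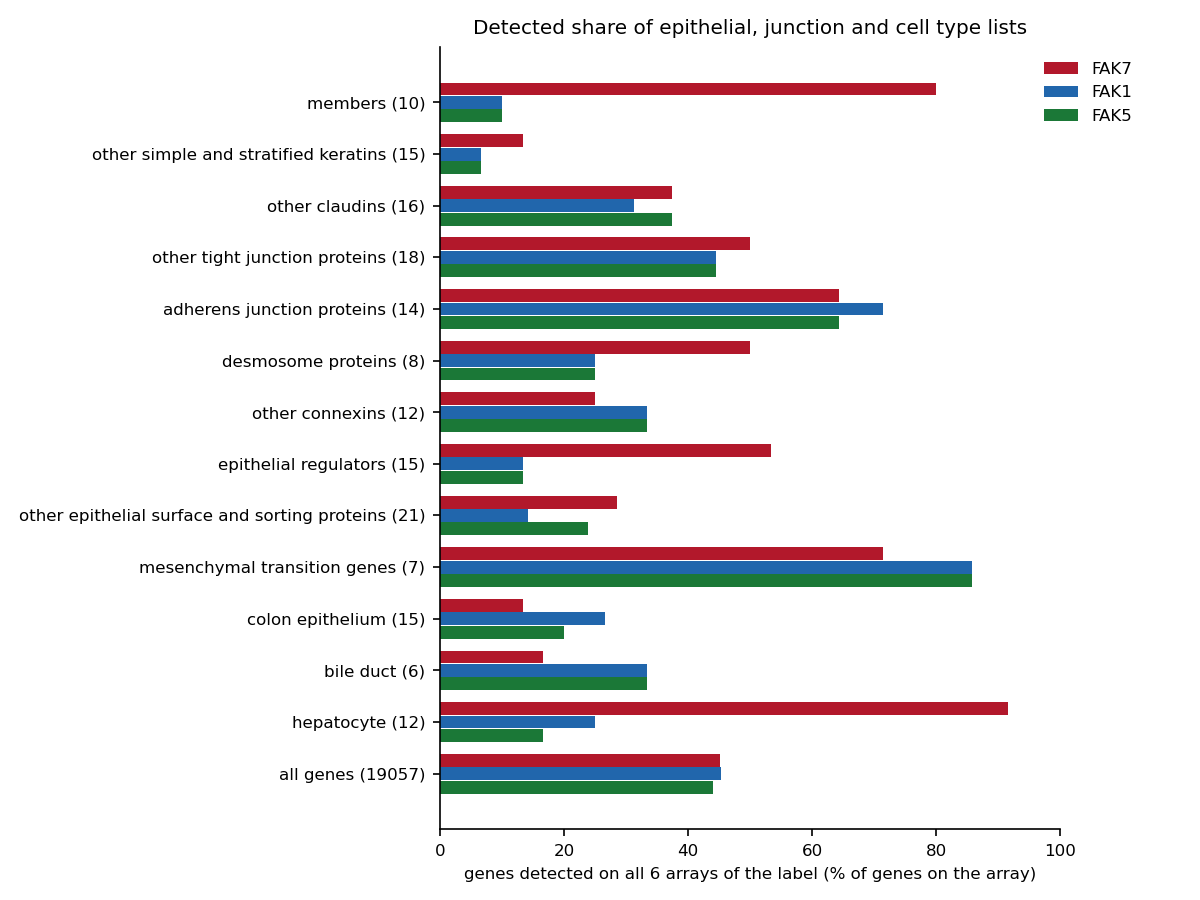
Percentage of the genes of each list (x axis) that were detected on all 6 arrays of a mouse label, with the number of list genes on the array in brackets, for FAK7, FAK1 and FAK5. The described genes stand at 80% in FAK7 and 10% in FAK1 and FAK5, beside 45.1%, 45.3% and 44% over all genes.

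Markers of other cell types were set beside these levels. Of the 6 bile duct genes on the array, 2 of 3 tested (Krt7 and Sox9) were higher in FAK7 than in each other label, and the summed signal ran from 397.2 to 688.4 in FAK7 with U73122, 428.2 to 502 in FAK7 untreated, 224 to 333 in FAK1 with U73122, 216.9 to 382.8 in FAK1 untreated, 258 to 404 in FAK5 with U73122 and 226.5 to 265.7 in FAK5 untreated. Krt7 passed the filter on low signals through FAK7 alone. Of the 6 genes, 1 was detected on all 6 FAK7 arrays (Sox9), and 2 on all 6 arrays of FAK1 and of FAK5 (Sox9 and Sctr). Epcam, Krt19 and the chloride channel Cftr, which define ducts, were undetected on all FAK7 arrays, except for Krt19 on 1. Of the 8 mesothelial genes, 3 were detected on all 6 FAK7 arrays, which were Krt8, Krt18 and Upk3b, and 0 on all 6 arrays of FAK1 or FAK5, with Msln, mesothelin, detected on 1 of 6 FAK7 arrays. Of 11 hepatocyte genes tested, 10 were higher in FAK7 than in each other label. Of all 11377 genes, 4026 were higher than in FAK1 and 4547 higher than in FAK5. Alb, Apoa1, Ttr, Hpx, Serpina1c, Cps1 and Hamp passed the filter on low signals through FAK7 alone, so this count is fixed in part by it. Trf and Tat were detected in every label. The part of the hepatocyte genes in the levels of the described genes was not tested.

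The second question was whether 24 h of U73122 changed these genes. It was not seen to change any of them: in FAK7, FAK1 and FAK5, 0 of 10 tested probes passed an adjusted p under 0.05 in limma. Cldn1 alone was detected on every FAK1 and every FAK5 array. Most of the other probes lay near background in these labels, where a rise could show but a fall could not. At an unadjusted p under 0.05 there were 2 in FAK7 (Gjb1 and Cdh1 ILMN_1227162), 0 in FAK1 and 0 in FAK5, against 10.1%, 11.1% and 11.4% of all probes. After adjustment, 0.656% of all 21193 probes were called in FAK7, 0.67% in FAK1 and 0.146% in FAK5, so an absence of calls among 10 probes was near the background. Over the 3 mouse labels together, 0 of 10 passed in limma and 0 had an unadjusted p under 0.05. Of all probes, 0% passed in that comparison, and 1290 had an unadjusted p under 0.05. The test of a treatment effect that differs between labels called 0 of 10, against 0.236% of all probes, and 0 had an unadjusted p under 0.05, against 11.5% of all probes.

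Gjb1 came nearest in FAK7. As listed above, each of its 3 arrays with U73122 read higher than each untreated array, a pattern that 9.04% of all probes showed in FAK7. The log2 difference was 0.39 ± 0.14 (SE, 95% interval 0.10 to 0.67), with an adjusted p of 0.282 in the limma fit. In FAK1 and FAK5, where Gjb1 was not detected, the differences were -0.0031 and 0.06. Connexin 26, its partner gene Gjb2, differed by 0.09 ± 0.21 (SE) in FAK7 (adjusted p = 0.974, limma).

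The Cdh1 probe ILMN_1227162 had a log2 difference of -0.33 ± 0.12 (SE) in FAK7, with an adjusted p of 0.288 in the limma fit. It read 4.63, 4.73 and 5.02 with U73122 and 4.98, 5.20 and 5.18 untreated, with 1 treated and 3 untreated arrays above the detection limit, and the ranges overlapped. The brighter Cdh1 probe ILMN_2628629 differed by -0.06 ± 0.27 (SE), with a 95% interval of -0.64 to 0.51. Its treated mean includes the first array with U73122, at 8.77 against 8.32 and 7.47 on the other treated arrays. The first array lay 0.58 above that mean, and the third lay further off on the other side, at -0.71. Whether the 2 probes differ in their response was not tested. Cldn1 differed by -0.47 ± 0.33 (SE) in FAK7, a wide interval of -1.16 to 0.23, adjusted p = 0.733 in limma.

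Krt8 and Krt18 differed in FAK7 by 0.31 ± 0.19 and 0.28 ± 0.19 (SE), with adjusted p-values of 0.67 and 0.731 in limma. Both means were raised by 1 array, the first FAK7 array with U73122, which read 12.90 and 11.64, while the other treated arrays overlapped the untreated ones. Without that array the differences were 0.04 and -0.01. Macrophage genes moved with treatment in FAK7: C1qb, a complement subunit made by macrophages, rose by 0.82 ± 0.17 on the log2 scale (SE, adjusted p = 0.0403, limma), the only one of 7 to pass, and the summed signal of the 7 ran from 7640 to 13967 with U73122 and from 5055 to 6067 untreated. Their median difference was also 0.82. All 7 read highest on the first array with U73122, which these values include. The part of the macrophage genes in the values of the described genes was not tested. Cldn2 differed by 0.19 and 0.10 for its 2 probes, Cldn3 by -0.17 and Cldn7 by 0.02, each with an interval that spans 0. In FAK1 the 10 differences lay between -0.13 and 0.26, and in FAK5 between -0.14 and 0.25, with most of the probes near background there.

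Krt8 read higher on each FAK1 array with U73122 than on each untreated FAK1 array, by 0.24 ± 0.19 (SE), as did 6.67% of all probes in FAK1, but no FAK1 array detected it. Skeletal muscle genes moved with treatment in FAK1: 7 of 10 rose with U73122, among them Pvalb by 4.98 and Myh4 by 4.55 on the log2 scale (adjusted p = 0.00333 and 0.00559, limma), and their summed signal ran from 32210 to 93511 with U73122 and from 532.5 to 26166 untreated. In FAK5 the same sum was 196531 to 200105 with U73122 and 190004 to 210512 untreated, and in FAK7 it was 287.9 to 299.8 with U73122 and 301.2 to 304.8 untreated. The part of the muscle genes' change in the FAK1 values was not tested.

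**Figure D3:**
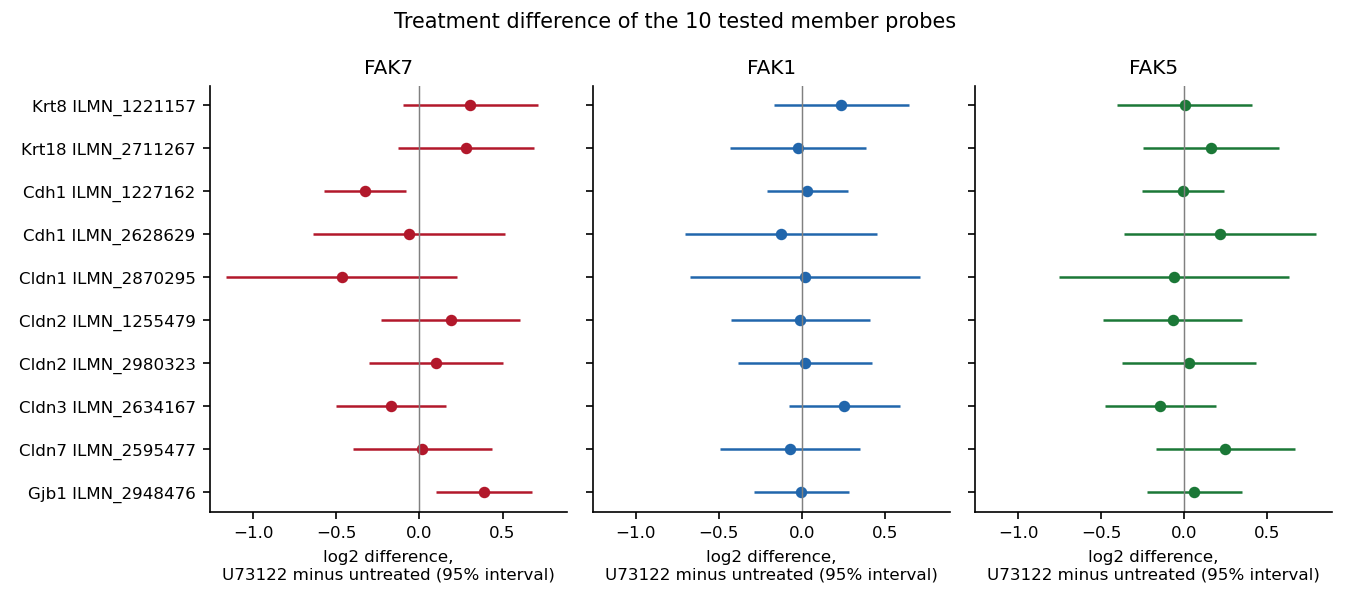
Log2 difference, U73122 minus untreated (x axis), of the 10 tested probes in FAK7, FAK1 and FAK5, with the 95% interval of the limma fit. In FAK7 the intervals of Gjb1 (0.10 to 0.67) and of Cdh1 ILMN_1227162 (-0.57 to -0.08) leave out 0 before adjustment, and no difference passed after it.

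None of the other junction and keratin lists held a called gene for treatment in any label, nor did the epithelial regulators or the surface and sorting proteins. In FAK7 the median log2 difference was 0.12 over the epithelial regulators, 0.04 over the desmosome genes, 0.02 over the other keratins, -0.06 over the other claudins and -0.15 over the other tight junction proteins. The median over all genes tested was 0.0038 in FAK7. Lgals4 had a difference of 0.57 ± 0.30 in FAK7, -0.71 ± 0.30 in FAK1 and -0.34 ± 0.30 in FAK5 (SE), none of which passed after adjustment.

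The genes varied in 2 directions from array to array within FAK7. As a description over the 6 arrays, deviations from the group mean correlated positively for 17 of 28 pairs among the 8 genes (r from -0.84 to 0.96). Among Krt8, Krt18, Cdh1, Cldn1 and Cldn3 this held for 10 of 10 pairs (r from 0.47 to 0.96). These 5 genes were grouped from the same values, so that count is no separate support. After the mean of each group was taken off, the first array with U73122 stood at 0.52 for Krt8, 0.58 for Krt18 and 0.58 for Cdh1, the highest of the 6 for each, and at -0.37 for Cldn2, the lowest of the 6. The third array with U73122 was the reverse, at -0.31 for Krt8, -0.36 for Krt18 and -0.71 for Cdh1, and 0.41 for Cldn2. The keratins and E-cadherin thus lay on one side and Cldn2 on the other on these 2 arrays. Deviations within a group balance out, so a first array far from the mean in part sets the others the opposite way. The first array also read highest of the 6 for Sox9, at 9.07 against 7.99 to 8.49 on the others, for Cldn4, at 5.92 against 4.59 to 5.37, for Tspan8, at 6.13 against 4.63 to 5.36, and for Krt19, at 5.45 against 4.51 to 4.91. These genes were named after their values were seen, and their lists were mixed. Of 9 other tight junction genes detected on all 6 FAK7 arrays, 7 read lowest and 1 highest on that array. Ocln read 5.31 there against 5.76 to 6.24. Of 6 surface and sorting genes, 3 read lowest and 1 highest, and of 9 adherens junction genes, 1 read lowest and 6 highest. Of 7 macrophage genes, 7 read highest on that array, such as Laptm5 at 11.90 against 10.38 to 10.98 on the others. Of 11 hepatocyte genes detected on all 6 FAK7 arrays, 6 read lowest on it, such as Alb at 5.05 against 5.79 to 6.15, and the cytochrome Cyp1a2 read 11.32 against 12.98 to 13.49. Of all 8604 genes detected on all 6 FAK7 arrays, 29.6% read highest on it and 25.3% lowest. The part of these genes in its keratin and Cdh1 levels was not tested. As these are 6 arrays of 1 mouse label, no test was made of them.

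**Figure D4:**
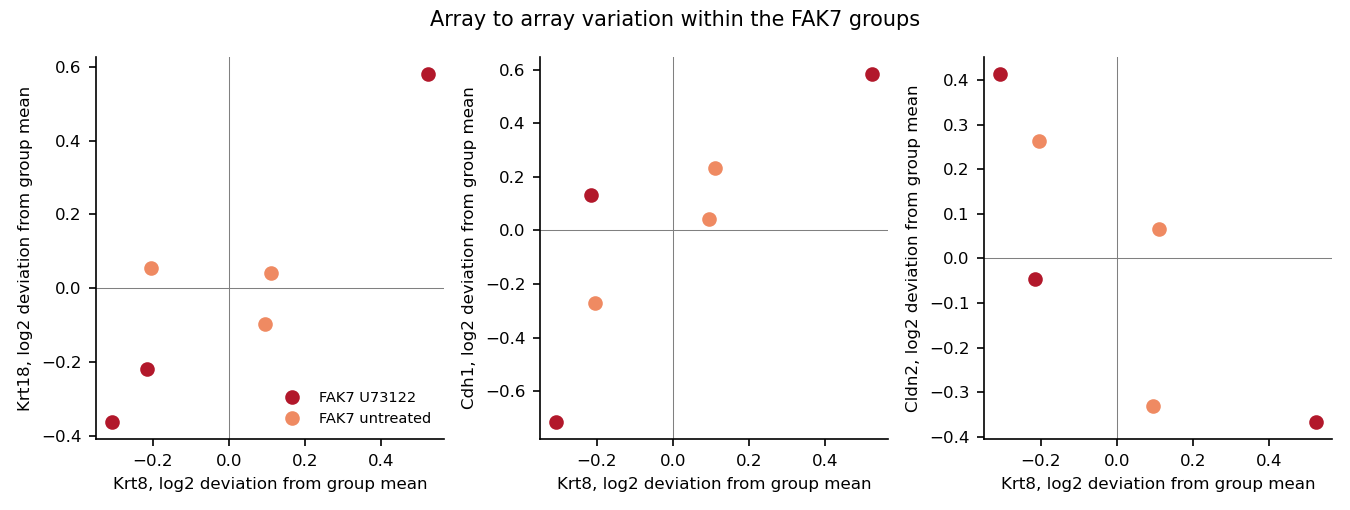
Deviation from the group mean, in log2 units, of Krt8 (x axes) against Krt18, Cdh1 and Cldn2 (y axes) on the 6 FAK7 arrays, 3 with U73122 and 3 untreated. The first array with U73122 lies at the right end of each panel, high for Krt18 and Cdh1 and low for Cldn2.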

How the data were processed

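Expression was measured on Illumina mouse arrays, 3 per group, with 936 steps in the detection p-values. The deposited table holds a signal intensity and a detection p-value per probe, which the authors gave without normalization, per the file headers. Intensities below 0 made up 23.2% to 30.9% of an array's probes, so the deposited values are background-subtracted. The authors' series matrix holds processed intensity values with a median near 7.79 on each array and the same ranks; its scaling is not given in the sources used here, and it served as an alternative. Arrays carry no read depth, and their number limits the precision.

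Signals were background-corrected with normexp and quantile normalized on the log2 scale by limma's neqc (limma 3.58.1, R 4.3.3, offset 16), with the background taken from the detection p-values. Probes detected on all 3 arrays of at least 1 group, 21193, entered 1 limma fit of the 6 group means over 18 arrays, with an intensity trend, two-sided moderated tests and Benjamini-Hochberg adjustment over all of them. Treatment over the 3 labels used mean profiles with mouse label as a term, and unequal treatment effects used a moderated F test. Values are per probe. For gene lists the brightest probe of a gene was used. Probe names come from the platform annotation: 34885 probes had 1 gene symbol, 18 several and 10378 none, and 34807 matched RefSeq by gene ID. Coordinates and promoters are RefSeq GRCm38.p6; the build behind the probe design is not given in the sources used here. Where the lower label did not detect a probe on all its arrays, "at least" folds set the higher label's mean against the higher of each lower array's lowest detected signal and its own value.

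The genes and lists were chosen with earlier results of these data known. From each list up to 3 tested genes with the highest group mean were named, together with undetected and some detected genes chosen after their values were seen. The fit was tested on simulated data. One further engineered allele and the sorting marker are not reported here.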

Additional observations from a re-analysis of the deposited data

Results flagged for a closer look

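Cldn12, a widely expressed claudin, read higher with U73122 than untreated on every FAK1 array, with a log2 difference of 0.2834, and lower with U73122 on every FAK7 array, with a log2 difference of -0.1301. Neither difference passed adjustment in limma (adjusted p = 0.581 in FAK1 and 0.908 in FAK7), and the test of unequal treatment effects over the 3 labels gave an adjusted p of 0.624. Of all probes, 6.67% read higher with U73122 on every FAK1 array, and the share that read lower in FAK7 is not given here. Pvalb, a calcium-binding protein of fast skeletal muscle, had a treatment effect that differed between labels, with a moderated F of 16.11 and an adjusted p of 0.0465 in limma. It stands here as a marker of another cell type: its log2 difference was 4.98 in FAK1. Treated and untreated FAK1 arrays differed in part in Xist and Eif2s3y, so treatment and animal cannot be fully told apart in that value.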

How the results depend on the processing

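Under the 11 to 14 planned settings for each treatment comparison and with each of the 18 arrays left out in turn, 0 of the tested probes of these genes passed for treatment in FAK7, FAK1, FAK5, over the 3 labels or as an unequal effect. The smallest adjusted p in FAK7 was 0.0736, for Cdh1 ILMN_1227162 without the third FAK7 array with U73122. Between 8 and 11 probes or genes were called higher in FAK7 than in FAK1 and than in FAK5 under the settings, and 10 whichever array was left out. Between FAK1 and FAK5 the count was 1 without the 4 untreated arrays with Y-linked transcripts, and 0 to 1 with 1 array left out; the cause was not tested. Counts over all probes moved more: in FAK7 the treatment count was 139, and 27 with its 6 arrays alone, and in FAK1 it was 142, and 999 without the 4 untreated arrays with Y-linked transcripts. Replicate numbers are shared by treated and untreated arrays, but same-numbered arrays correlated at 0.028 to 0.264 in FAK7, -0.020 to 0.206 in FAK1 and 0.052 to 0.172 in FAK5, so they were not taken as pairs; 4, 4 and 6 of 6 arrays correlated best with their own number. With the replicate number as a block, 0 of these probes passed for treatment, 10 were higher in FAK7 than in each other label and 165 of all probes were called for treatment in FAK7. Probes near the detection limit, such as Cldn7 and Cdh1 ILMN_1227162, are limited by signal over background.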

Other observations

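E-cadherin is known as higher in hepatocytes near the portal vein in mouse liver, and Cldn2 as higher towards the central vein. Since Cdh1 and Cldn2 moved oppositely on the FAK7 arrays, genes of the 2 zones were listed after these values were seen, and are given as a description. Of 7 periportal genes detected on all 6 FAK7 arrays, such as Hal and Cyp2f2, deviations from the group mean went in the direction of Cdh1 for 2 and of Cldn2 for 6. Of 10 pericentral genes they went in the direction of Cdh1 for 3 and of Cldn2 for 7. Over all 12769 probes compared, 51.0% went with Cdh1 and 48.5% with Cldn2. Both lists thus went the same way, and the 6 arrays do not separate the zones.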
